A study of Mus musculus with 6 samples.

Results

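The AMPA receptor genes described here are 10 of the 46078 genes listed for the striatum of Shank3-overexpressing mice, and all 10 were among the 17605 genes tested. They were chosen by name, with earlier results of these data known. They comprise the 4 pore-forming subunit genes Gria1 to Gria4, 4 genes for transmembrane AMPA receptor regulatory proteins (TARPs), which are Cacng2, Cacng3, Cacng4 and Cacng8, and the cornichon genes Cnih2 and Cnih3. Below, the TARP genes are these 4. Cacng5 and Cacng7 also encode TARPs and are taken up with the further genes for proteins that act on the receptor. Each was found once by its Ensembl identifier in the GENCODE M21 annotation of the mouse genome (GRCm38). RNA was sequenced from the dissected striatum of 3 wild-type (WT) and 3 Shank3 transgenic (TG) mice of the C57BL/6J strain, all males aged 12 weeks, with 1 library for each mouse. The TG mice carry an EGFP-tagged Shank3 transgene on top of their own Shank3 gene, and the promoter that drives it is not given in the sources used here. Values are read counts divided by the size factor of the library (normalized read counts), and a difference was called where the Benjamini-Hochberg adjusted P value of limma, a linear model fitted across all genes tested, was under 0.05.

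AMPA receptors are the glutamate-gated channels that carry most fast excitatory transmission in the brain, and spiny projection neurons, the main neurons of the striatum, receive cortical and thalamic input through them. Each channel is a tetramer of the Gria products, and TARPs and cornichons bind it, help to bring it to the synapse and slow the closing of its pore. Shank3 is a scaffold of the excitatory postsynapse that is linked to AMPA receptors through other scaffold proteins rather than being part of the channel.

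The subunits differ from one another at few bases around the editing site of the pore, and 45 bases of each coding sequence are shown because this site sets whether a channel passes calcium. Capitals mark the glutamine codon that in the Gria2 transcript is recoded to arginine by the editing enzyme Adarb1. The sequences are the GRCm38 reference joined across an exon junction of GENCODE M21 transcripts and read 5′ to 3′ on the coding strand.
Gria1: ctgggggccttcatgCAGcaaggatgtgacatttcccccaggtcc
Gria2: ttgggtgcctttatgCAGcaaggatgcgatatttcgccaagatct
Gria3: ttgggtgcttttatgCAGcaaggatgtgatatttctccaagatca
Gria4: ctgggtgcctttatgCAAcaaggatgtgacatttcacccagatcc
The codon lies in exon 11 of Gria1 at chr11:57243094-57243096 (plus strand), in exon 11 of Gria2 at chr3:80706911-80706913 (minus strand), in exon 11 of Gria3 at chrX:41610265-41610267 (plus strand) and in exon 12 of Gria4 at chr9:4464137-4464139 (minus strand). Within the 45 bases Gria3 differed from Gria2 at 4 bases, Gria4 at 7 and Gria1 at 9. The gene counts hold no base calls, so the edited share of the Gria2 transcript was not analysed here.

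The last 4 codons before the stop, in capitals in the next set, are shown because the tails of these proteins bind the PDZ domains of synaptic scaffolds. Each line is the last 30 bases of the coding sequence in GRCm38, stop codon included.
Gria1: gggatgcccttgggaGCCACAGGATTGtaa
Gria2: gtatatggcatcgagAGTGTTAAAATTtag
Gria3: gtgtatggaacagaaAGTGTTAAGATCtag
Gria4: ttggctgtcattgcaTCGGACCTACCAtaa
Cacng2: acagccaaccgccggACCACGCCCGTAtga
Cacng3: ccggccaacagacgtACCACGCCTGTCtga
Cacng4: atgctgaaccggcggACGACTCCCGTGtga
Cacng8: acgctcaacaggaaaACCACGCCCGTGtag
The 4 TARP genes spell the same residues with different codons in this stretch, and so do Gria2 and Gria3. The stretch of Gria4 is that of 3 of its 4 coding transcripts, and the stretch of Cacng8 that of 2 of its 3. At the length of a sequencing read, no member shared a stretch of its transcripts with another member, so reads of related members could be told apart.

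Shank3 itself was checked first. The libraries held 29891, 28309 and 26044 normalized reads in TG mice 1 to 3 against 13807, 12918 and 13865 in WT mice 1 to 3, and every TG mouse was above every WT mouse. The difference of 1.05 ± 0.06 (SE, n = 3 per genotype) on the log2 scale was called by limma, with an adjusted P value of 7.04e-05, and reads of the transgene can enter this count. The recovered library totals were between 27689589 and 36647626 reads on genes, and each member rested on between 1240 and 28701 reads per library. All 10 markers of spiny projection neurons were detected in every library. Markers of the choroid plexus, an epithelium outside the striatum, summed to 15477 normalized reads in TG mouse 1 and to between 564 and 1984 in the other 5 mice, and 9 of 9 were highest in that mouse, with 1 of the 9 at 0 in some library. Markers of cortical excitatory neurons were also present, with sums between 28411 and 40302 in the TG mice and between 33050 and 37857 in the WT mice. The mean was higher in TG mice for 1 of 10 spiny, 0 of 5 striatal interneuron and 6 of 9 cortical markers, against 49.2% of all genes tested. None of these markers was called, and the sums of each list overlapped between the genotypes.

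None of the 10 AMPA receptor genes was called in the Shank3 TG striatum by limma, against 0.00568% of all genes tested, which is Shank3 alone. None reached an unadjusted P value under 0.05 either, against 4.31% of all genes tested. The adjusted P values of the members lay between 0.971 and 0.989. With edgeR's quasi-likelihood test, limma-voom and DESeq2 on the recovered reads, 0 members were called, against 1, 1 and 7 of all genes tested. In these tests 0 members had an unadjusted P value under 0.05, against 4.38%, 4.24% and 2.45% of all genes tested. The mean was higher in TG mice for 5 members and lower for 5, against 49.2% and 50.8% of all genes tested. By family, all 4 Gria means were higher and all 4 TARP means were lower, and the cornichon genes were split. Leaving out a single mouse turned Cacng2 to 0.01 (without TG mouse 2) and Cacng3 to 0.00 (without TG mouse 3, and likewise without WT mouse 1), and no other member changed sign under the alternatives run. The median difference was 0.08 for the Gria genes, -0.04 for the TARP genes and -0.00 for all genes tested, on the log2 scale. In bulk tissue, fewer cells of a type and less RNA per cell cannot be told apart.

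Gria1 encodes GluA1, the subunit whose insertion at synapses increases during long-term potentiation (chr11:57011387-57330244, plus strand). Normalized reads came to 14385, 15361 and 14522 in TG mice 1 to 3 against 13616, 14378 and 14201 in WT mice 1 to 3. Every TG mouse was above every WT mouse, TG mouse 1 only just. Gria1 was the only member whose genotypes did not overlap, against 10.1% of all genes tested in either direction and 5.06% with the TG mice higher. The difference was 0.07 ± 0.05 on the log2 scale (SE, n = 3 per genotype, 95% interval -0.04 to 0.18), with a P value of 0.18 in limma and 0.1 in an exact two-sided permutation test, the smallest that 3 mice against 3 can give.

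Gria2 encodes GluA2, the edited subunit that keeps calcium out of the channel (chr3:80681450-80802835, minus strand). It had the most reads of the 10 genes, at 24627, 26081 and 26913 normalized reads in TG mice 1 to 3 against 24769, 24489 and 23359.6 in WT mice 1 to 3. TG mice 2 and 3 were above every WT mouse, and TG mouse 1 lay between WT mice 1 and 2. The mean was 6.85% higher in TG mice, and the 95% interval ran from -1.47% to 15.9%. The P value was 0.0989 in limma and 0.2 in the exact permutation test.

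Gria3, on the X chromosome, encodes a subunit that mostly pairs with GluA2 (chrX:41400854-41678601, plus strand). It had normalized counts of 8969, 8499.5 and 9304 in TG mice 1 to 3 against 8722, 8786 and 8235 in WT mice 1 to 3, with TG mouse 2 below the WT mice 1 and 2. The difference of 0.06 ± 0.05 on the log2 scale (95% interval -0.06 to 0.17) was within the spread between mice, with a P value of 0.289 in limma. Gria4 encodes a subunit known from fast channels of interneurons and cerebellum (chr9:4417896-4796234, minus strand). It gave 3130.1, 3312 and 3455 normalized reads in TG mice 1 to 3 against 3043, 3077 and 3148 in WT mice 1 to 3, and the genotypes overlapped only between TG mouse 1 and WT mouse 3. The difference of 0.09 ± 0.05 (95% interval -0.02 to 0.20) had the smallest P value of the members, 0.0874 in limma, and 0.2 in the exact permutation test.

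**Figure D1:**
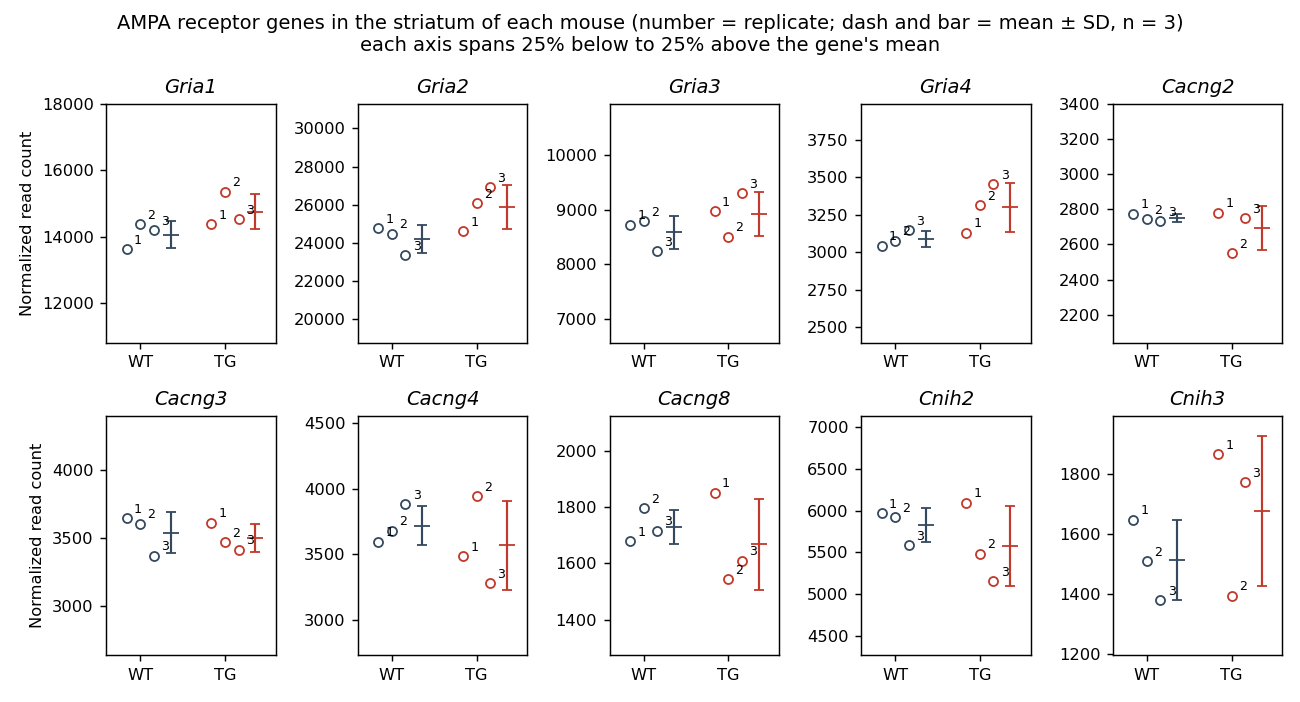
Normalized read count (y axis, linear, not starting at 0) of each AMPA receptor gene in the 3 WT mice (blue) and the 3 Shank3 TG mice (red). Circles are mice numbered by replicate, and the dash with its bar is the mean ± SD (n = 3). The genotypes overlap for every gene except Gria1, and the WT values of Cacng2 lie close together.

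Among the TARPs, Cacng2 encodes stargazin, the member mutated in the ataxic stargazer mouse (chr15:77991748-78120028, minus strand). The 3 WT mice were nearly alike at 2774, 2743 and 2733 normalized reads, and the TG mice had 2780.1, 2549 and 2751. Only TG mouse 2 stood clearly outside the WT values, and the SD of the log2 values was 0.0112 in WT and 0.0682 in TG mice. Counting error alone gives an SD of 0.0277, which is above the SD of the WT mice. The difference was -0.03 ± 0.05 on the log2 scale (95% interval -0.14 to 0.08, limma P value 0.539). An antisense gene, A730060N03Rik, overlaps 323 bases of its exons and had a mean of 144 normalized reads, and as the library kit does not mark strand, reads of this stretch could come from either gene.

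Cacng3, a TARP known from cortex and forebrain (chr7:122670492-122769393, plus strand), had 3611, 3464 and 3410.0 normalized reads in TG mice 1 to 3 against 3642, 3602 and 3366 in WT mice 1 to 3. The TG values lay inside the WT range, and the difference of -0.02 ± 0.05 (95% interval -0.13 to 0.09, limma P value 0.742) was the smallest of the 10. Cacng4, a TARP known from striatum and developing brain (chr11:107732357-107794557, minus strand), had 3486, 3942 and 3278 in TG mice 1 to 3 against 3595, 3679 and 3879.8 in WT mice 1 to 3. TG mice held both the highest and the lowest value, and the difference was -0.06 ± 0.07 (95% interval -0.21 to 0.08, limma P value 0.368). Cacng8, the TARP that prevails in hippocampus (chr7:3390683-3415648, plus strand), had 1852, 1543 and 1609.6 in TG mice 1 to 3 against 1679, 1796 and 1716 in WT mice 1 to 3. TG mouse 1 was the highest and the other TG mice the lowest, with a difference of -0.06 ± 0.07 (95% interval -0.21 to 0.10, limma P value 0.431).

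Cornichons carry AMPA receptors out of the endoplasmic reticulum and slow their deactivation. Cnih2 (chr19:5092868-5098521, minus strand) gave 6095, 5485 and 5157 normalized reads in TG mice 1 to 3 against 5969.7, 5917 and 5589 in WT mice 1 to 3. TG mouse 1 was above all WT mice and TG mice 2 and 3 below all of them, and the difference was -0.07 ± 0.06 (95% interval -0.20 to 0.07, limma P value 0.318). Cnih3 (chr1:181352628-181460641, plus strand) varied most, at 1865, 1394 and 1773 in TG mice 1 to 3 against 1648, 1509 and 1379 in WT mice 1 to 3. TG mice 1 and 3 were above all WT mice, and TG mouse 2 was near the lowest WT mouse. Its mean was 10.3% higher in TG mice, with a 95% interval from -5.81% to 29.2%, a limma P value of 0.197 and an exact permutation P value of 0.4.

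**Figure D2:**
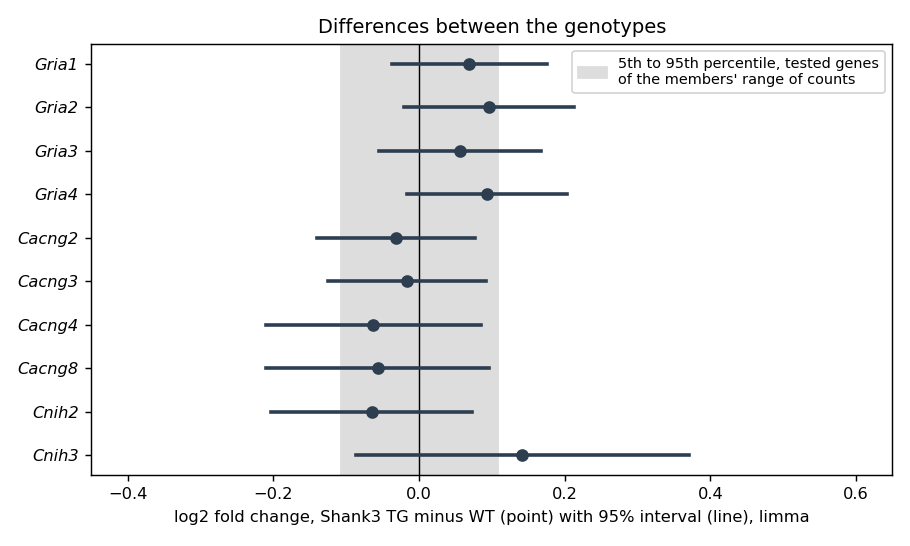
Difference between genotypes (TG minus WT, log2 scale) for each member (point) with its 95% interval from limma (line, n = 3 per genotype), and the 5th to 95th percentile of the 4431 tested genes whose mean lies in the members' range (grey). Every interval crosses 0, the 4 Gria points lie to the right and the 4 TARP points to the left, and the Cnih3 point at 0.14 is the only one outside the grey band of -0.11 to 0.11. Cnih3 has the lowest mean of that range, and the band was not narrowed to genes near its own mean.

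The intervals limit what difference these mice could hide. For the Gria genes they ran from -0.06 to 0.21 and for the TARP genes from -0.21 to 0.10 on the log2 scale, while the interval of Cnih3 reached 0.37. Their widths rest on limma's variance for each gene, which draws partly on all genes tested and not on the member's own spread alone. The SD of the log2 values within genotype was between 1.76 times (Cacng2) and 6.11 times (Gria2) the SD that counting alone gives. The spread between mice was thus the larger part of this SD for every member. The SD within genotype was 0.0465 for Gria1, the smallest, and 0.183 for Cnih3, the largest, beside a median of 0.0629 for the 4431 tested genes of like abundance. These are the genes in the range of the members' means, 1595 to 25040 normalized reads, with Cnih3 at the lower edge.

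The SD was larger in TG than in WT mice for 9 of the 10 members, all but Cacng3, against 59.2% of the genes of like abundance. The highest value was that of a TG mouse for 9 of the 10 members, against 59.6% of those genes, and TG mouse 1 held it for 4 members (Cacng2, Cacng8, Cnih2 and Cnih3), against 17.7%. The lowest value was that of a TG mouse for 4 of the 10 members. These shares are descriptions, as members of one receptor in the same libraries are not independent.

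The size of the differences depended on single mice. Without TG mouse 1, the library with the choroid plexus markers, 0 members were called, and 4 members had an unadjusted P value under 0.05 in limma, against 7.53% of all genes tested in that setting. Gria2 and Gria4 then differed by 0.13 each, and Cnih2 and Cacng8 by -0.13 each, with an adjusted P value of 0.658 for all 4. In the same setting Cnih3 was at 0.06 in place of 0.14, Cacng4 at -0.05 in place of -0.06 and Gria3 at 0.05 in place of 0.06. With the choroid plexus marker sum as a covariate, Gria2 (0.15), Gria4 (0.15) and Cnih2 (-0.16) had an unadjusted P value under 0.05, against 6.1% of all genes tested, with an adjusted P value of 0.785 in limma. Without TG mouse 2, the mouse with the lowest cortical markers, Cnih3 differed by 0.27 and Cacng4 by -0.14, both with an unadjusted P value under 0.05, against 5.82% of all genes tested, and adjusted P values of 0.620 and 0.843. Cacng8 was then at -0.0026 and Gria1 at 0.04. Without TG mouse 3, Cacng4 was at -0.0035, Cnih2 at -0.01 and Gria3 at 0.03, and 0 members had an unadjusted P value under 0.05, against 2.86% of all genes tested. The count was also 0 without each of the WT mice 1 to 3, against 4.0%, 3.71% and 3.33% of all genes tested.

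The members were set beside the marker sums of spiny and of cortical neurons from mouse to mouse. The cortical sums were 40302, 28411 and 39460 in TG mice 1 to 3 against 37857, 36291 and 33050 in WT mice 1 to 3. They order the mice in reverse of the spiny sums, except that TG mouse 2 and WT mouse 3 trade places. A relation with the spiny sum and one of opposite sign with the cortical sum are therefore not separate results. The 6 mice ranked by Cnih3 stood in the reverse order of their spiny projection neuron markers, whose sums were 127810, 178339 and 150134 in TG mice 1 to 3 against 154427, 160742 and 178342 in WT mice 1 to 3. Over the 6 mice, Pearson's r of the log2 values was -0.95 and Spearman's rho -1.0 (exact permutation P value 0.00278 for each, 0.0556 after Benjamini-Hochberg adjustment over 20 relations). Without TG mouse 1 and WT mouse 3, the mice farthest from the median, r was -0.96. TG mouse 2, with nearly the same spiny sum as WT mouse 3, stayed in, so leaving out this pair does not remove the high end of the spiny sums. With the cortical markers, Cnih3 had an r of 0.88 and a rho of 0.94 (exact permutation P values 0.00833 and 0.0167, adjusted 0.0667 and 0.0833), and r was 0.999 over the few mice that remain without TG mouse 2 and WT mouse 3. These mice have the lowest cortical sums, so leaving out this pair removes the low end.

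Cacng4 had the opposite sign, with an r of -0.87 and a rho of -0.94 to the cortical markers (exact permutation P values 0.0111 and 0.0167, adjusted 0.0667 and 0.0833), and an r of -0.74 without TG mouse 2 and WT mouse 3. With the spiny markers Cacng4 had an r of 0.76 and a rho of 0.89 (exact permutation P values 0.0722 and 0.0333, adjusted 0.236 and 0.0952), and r was 0.92 without TG mouse 1 and WT mouse 3. Cacng2 had an r of 0.91 and a rho of 0.94 to the cortical markers (exact permutation P value 0.0167 for each, adjusted 0.0667 and 0.0833), but r was 0.59 without TG mouse 2 and WT mouse 3. With the spiny markers Cacng2 had an r of -0.63 and a rho of -0.89 (exact permutation P values 0.0167 and 0.0333, adjusted 0.0667 and 0.0952). That r was -0.94 without TG mouse 1 and WT mouse 3. Gria3 had an r of -0.73 and a rho of -0.89 to the spiny markers (exact permutation P values 0.0917 and 0.0333, adjusted 0.236 and 0.0952). Members and marker sums come from the same 6 libraries, and as the spiny and cortical sums nearly mirror each other, the 20 relations are not independent. No relation of the 20 had an adjusted P value under 0.05, and the relations were computed after the values of the members had been seen. As a covariate, the spiny marker sum left a difference of 0.03 for Cnih3, in place of 0.14, and the cortical marker sum left 0.14 with an unadjusted limma P value of 0.0181 (adjusted 0.897), the only member under 0.05 in that setting, against 5.49% of all genes tested. The spiny marker sum left 0.12 for Gria4, with an unadjusted P value of 0.0355 and an adjusted P value of 0.622, again the only member, against 7.85% of all genes tested.

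**Figure D3:**
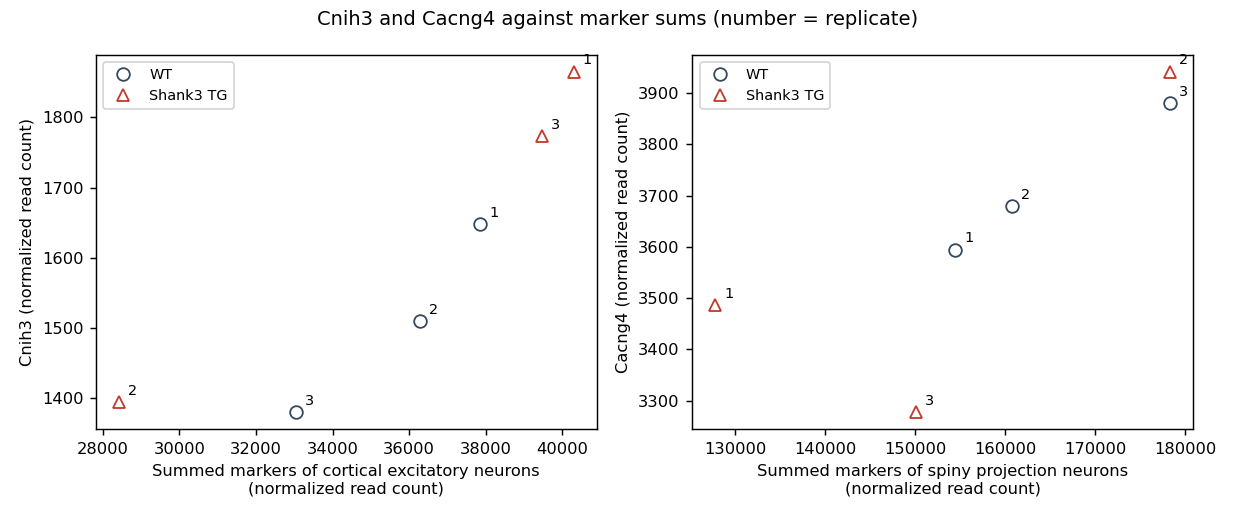
Normalized read count of Cnih3 against the summed markers of cortical excitatory neurons (left) and of Cacng4 against the summed markers of spiny projection neurons (right), with 1 point for each WT mouse (circle) or Shank3 TG mouse (triangle), numbered by replicate. Axes are linear and do not start at 0. TG mice 1 and 3 have the highest cortical sums and the highest Cnih3 counts, and TG mouse 2 and WT mouse 3 have the highest spiny sums and the highest Cacng4 counts.

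Per length, the cornichon Cnih2 was the most abundant message of the group. In RPKM, the reads per kilobase of annotated exon scaled to the depth of the library, the mean over the 6 mice ± SD was 132 ± 8.12 for Cnih2, 75.8 ± 3.25 for Gria1 and 51.2 ± 2.64 for Gria2. The TARP genes Cacng3 (40.2 ± 1.30) and Cacng4 (32.4 ± 2.26) came next, then Gria3 (28.2 ± 1.19) and Cacng8 (23.0 ± 1.55). The lowest levels were those of Cnih3 (18.4 ± 2.30), Gria4 (16.1 ± 0.821) and Cacng2 (15.7 ± 0.460). All were well-expressed genes of the tissue, with Cnih2 above 98.9% and Cacng2 above 82.5% of the genes tested.

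Neighbours in this order differed beyond the range of the 6 mice except for Cacng4 and Gria3, Cacng8 and Cnih3, Cnih3 and Gria4, and Gria4 and Cacng2, whose ranges overlapped. The order depends on which exons make up the length. The annotated exons of Gria2 sum to 15548 bases and those of Gria3 to 9859 bases because noncoding transcripts with retained introns are included, against 10486 and 5498 bases for the exons of protein-coding transcripts. With the latter, Gria2 reached 75.9 and overlapped Gria1 at 77.7, and Gria3 at 50.6 stood above all 4 TARP genes. Both lengths keep Cnih2 first and Gria4 and Cacng2 last.

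**Figure D4:**
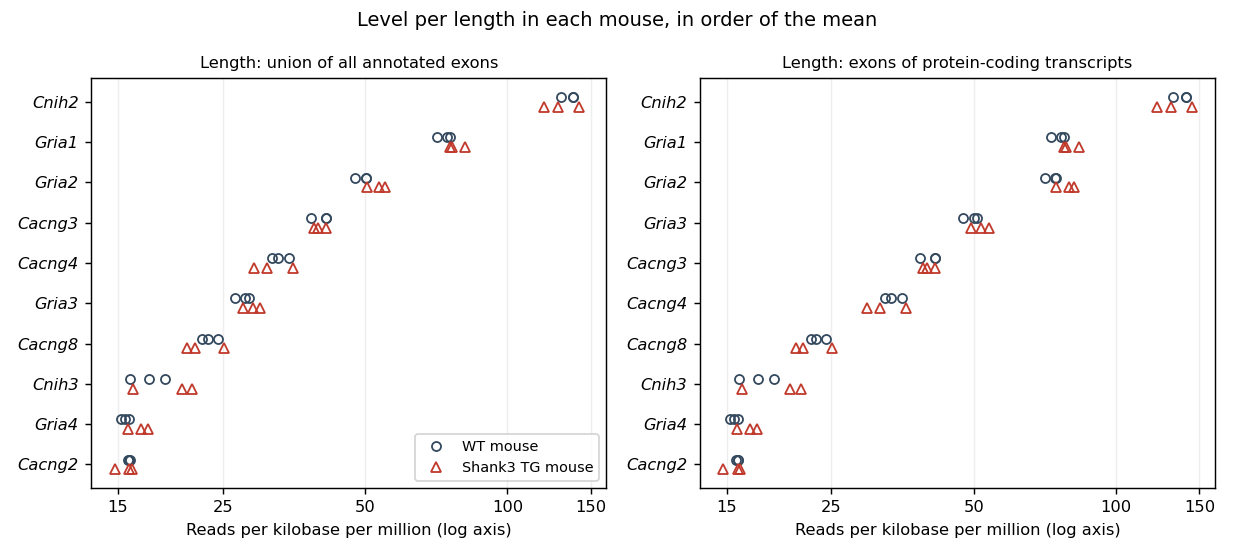
Level per length of each member in every mouse (x axis, RPKM, logarithmic), with length taken as all annotated exons (left) or the exons of protein-coding transcripts (right), in order of the mean. WT mice are circles and Shank3 TG mice triangles. Cnih2 is first at 132 and 135, and Gria2 and Gria3 move up in the right panel while the others keep close to their level.

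The genotypes overlapped in the share that each member had of its family. With the exons of protein-coding transcripts, Gria1 made up 35.2% ± 1.247 of the Gria reads per kilobase in TG mice and 35.4% ± 1.04 in WT mice (SD, n = 3). Gria2 made up 34.7% ± 0.675 and 34.2% ± 0.747, and Gria3 22.8% ± 1.08 and 23.1% ± 0.497, in TG and WT mice. Gria4 made up 7.35% ± 0.180 and 7.27% ± 0.227.

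Among the TARP members, with the same length, Cacng3 held 36.2% ± 0.479 of the reads per kilobase in TG and 35.6% ± 1.37 in WT mice, and Cacng4 held 29.3% ± 2.53 and 29.7% ± 1.31. Cacng5 and Cacng7 are not in these shares, although Cacng7 had more normalized reads than Cacng3 in every mouse over fewer bases (2212 against 2777). Cacng8 followed with 20.4% ± 1.58 and 20.6% ± 0.540, and Cacng2 with 14.1% ± 0.831 and 14.0% ± 0.184. Of the cornichon reads per kilobase, Cnih3 made up 13.0%, 11.04% and 14.4% in TG mice 1 to 3 against 11.9%, 11.1% and 10.8% in WT mice 1 to 3. The mean share of Cnih3 was 12.8% ± 1.68 in TG and 11.2% ± 0.579 in WT mice, with TG mouse 2 within the WT values, TG mouse 1 and TG mouse 3 above them, and the mice of both genotypes overlapping.

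Of the 4 ratios formed within and between families, Gria2 over Gria1, Gria1 over Gria4 and Cnih2 over Cnih3 overlapped between the genotypes on each length, and the ratio of the Gria to the TARP genes did not. The TARP sum holds the 4 member genes and leaves out Cacng5 and Cacng7. The summed Gria genes over the summed TARP genes, per kilobase of all annotated exons, gave 1.505, 1.62 and 1.69 in TG mice 1 to 3 against 1.47, 1.49 and 1.47 in WT mice 1 to 3. Every TG mouse was above every WT mouse, which among single genes held for 5.06% of all genes tested. The WT mice were nearly equal, with an SD of 0.00765 against 0.0930 in TG mice. With the exons of protein-coding transcripts the ratio was 1.93, 2.05 and 2.17 in TG mice 1 to 3 against 1.89, 1.90 and 1.87 in WT mice 1 to 3. The sums of oligodendrocyte markers (185492 to 188619 in TG, 188919.6 to 213371 in WT) and of microglial markers (6953 to 7601 in TG, 7652 to 7887 in WT) also separated the genotypes, both by a narrow margin. Taken singly, 0 of 4 oligodendrocyte and 2 of 4 microglial markers did so, against 10.1% of all genes tested. The part of these cell types in the ratio was not tested. The ratios were formed after the values had been seen and are given without a test, and TG mouse 1 lay closest to the WT mice in the Gria to TARP ratio on both lengths.

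**Figure D5:**
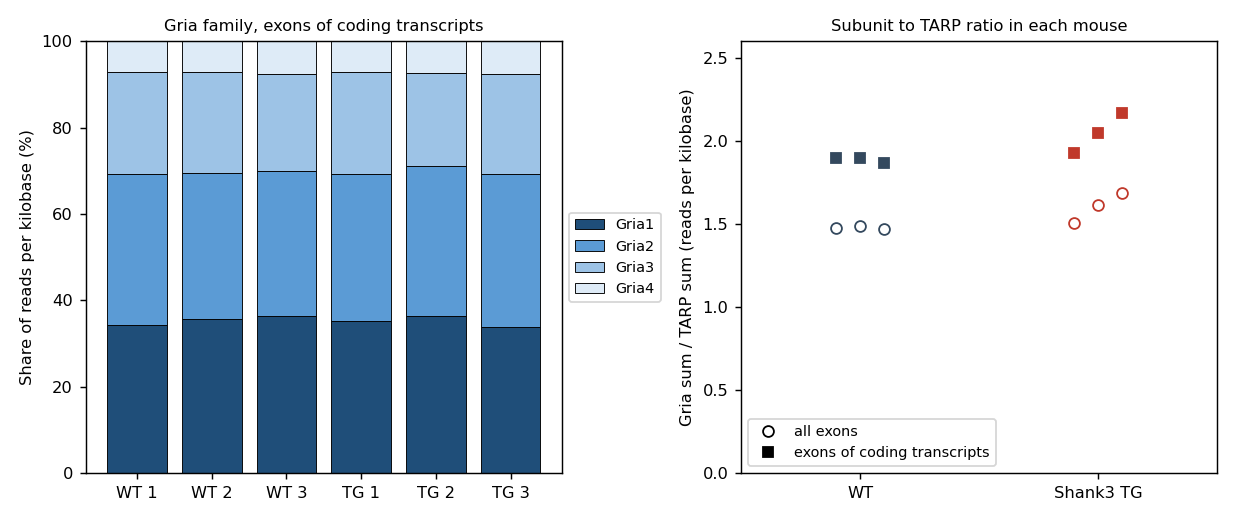
Share of each Gria gene in the reads per kilobase of the family (left, stacked bars, percent, 1 bar per mouse, exons of protein-coding transcripts) and the ratio of summed Gria to summed TARP genes in each mouse (right, linear axis from 0). Open circles use all annotated exons and filled squares those of protein-coding transcripts. The bars hardly differ between mice, and the TG ratios lie above the WT ratios.

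A list of 56 further genes for proteins that bind, assemble, edit or modify AMPA receptors was examined by role, and all were tested. None was called by limma, 3 with a higher and 3 with a lower mean had an unadjusted P value under 0.05, against 1.98% and 2.33% of all genes tested, and the genotypes did not overlap for 6 with the TG mice higher and 3 with the TG mice lower, against 5.06% and 5.05%. The count with an unadjusted P value under 0.05 was 7 with edgeR's quasi-likelihood test (4.38% of all genes tested), 6 with limma-voom (4.24%) and 5 with DESeq2 (2.45%), and none was called by these. The mean was higher in TG mice for 27 and lower for 29. Under other settings this count is given with the share of all genes tested under 0.05. It was 10 without TG mouse 1 (7.53% of all genes tested), 5 without TG mouse 2 (5.82%) and 2 without TG mouse 3 (2.86%). With a marker sum as a covariate it was 7 for cortical markers (5.49%), 7 for choroid plexus markers (6.1%) and 12 for spiny markers (7.85%). The spiny covariate was added after seeing the data. It was 3 without WT mouse 1 (4.0%), 2 without WT mouse 2 (3.71%) and 3 without WT mouse 3 (3.33%). In the main limma fit, the adjusted P values of the partner genes were 0.971 or more, as with the members.

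Of the 10 other auxiliary subunits, 2 had an unadjusted limma P value under 0.05 (against 4.31% of all genes tested), both with a lower mean. Cacng7, itself a TARP but not among the members, had 4779, 4025 and 4106 normalized reads in TG mice 1 to 3 against 5306, 5045 and 4548 in WT mice 1 to 3, with TG mouse 1 inside the WT values (-0.21 ± 0.08, limma P value 0.0189). Gsg1l, an auxiliary subunit that dampens the channel, had 4407, 4802 and 4713 in TG mice 1 to 3 against 4929, 5022 and 5262 in WT mice 1 to 3, with every TG mouse lower (-0.13 ± 0.05, limma P value 0.0268). Cacng5 had 629.8 in TG mouse 1 and between 304 and 400.3 in the other mice, a difference of 0.27 ± 0.20, and the part of the choroid plexus markers of TG mouse 1 in it was not tested.

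Of the 5 genes of receptor assembly in the endoplasmic reticulum, 2 had an unadjusted limma P value under 0.05, against 4.31% of all genes tested. Sacm1l, a phosphoinositide phosphatase found with the assembly complex, had 2331, 2349 and 2389.6 in TG mice 1 to 3 against 2099, 2196 and 2156 in WT mice 1 to 3, with every TG mouse higher (0.13 ± 0.05, limma P value 0.0147). Porcn, which acylates Wnt proteins and also binds AMPA receptors, had 1899.7, 1744 and 1956 in TG mice 1 to 3 against 2154, 2003 and 1972 in WT mice 1 to 3, with every TG mouse lower (-0.13 ± 0.06, limma P value 0.0499). Cpt1c, a brain carnitine palmitoyltransferase of the same complex, differed by -0.04 ± 0.04 on the log2 scale.

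Of the 17 genes for proteins that bind or traffic the subunits, 1 had an unadjusted limma P value under 0.05, against 4.31% of all genes tested. Vps35, a subunit of the retromer that returns receptors from endosomes, had 4907, 5119.7 and 5151 in TG mice 1 to 3 against 4749.6, 4704 and 4671 in WT mice 1 to 3, with every TG mouse higher (0.10 ± 0.04, limma P value 0.0362). Nsf, the ATPase that binds the GluA2 tail, differed by 0.10 ± 0.05, and Dlg1, the scaffold that binds the GluA1 tail, by 0.07 ± 0.04 with no overlap between the genotypes.

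None of the 13 genes for enzymes that edit or modify the subunits had an unadjusted limma P value under 0.05 or separated the genotypes. Of all genes tested, 4.31% and 10.1% did, so a count of 0 in a list of this length is no result about these enzymes. Camk2a, the kinase that phosphorylates GluA1 and TARPs, had 81066, 69179 and 77812 in TG mice 1 to 3 against 84540.0, 84538 and 81021 in WT mice 1 to 3, a difference of -0.14 ± 0.07 (limma P value 0.0812). Adar differed by 0.06 ± 0.05 and Prkaca, a catalytic subunit of protein kinase A, by 0.05 ± 0.06. Adarb1, the enzyme of the codon shown in capitals above, was looked up for that role and differed by -0.03 ± 0.05 (95% interval -0.16 to 0.09).

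Of the 11 extracellular partners, 1 had an unadjusted limma P value under 0.05, against 4.31% of all genes tested. Olfm3, a secreted olfactomedin protein that binds the receptor, had 1369, 1503 and 1522 in TG mice 1 to 3 against 1304, 1359 and 1245 in WT mice 1 to 3, with every TG mouse higher (0.17 ± 0.06, limma P value 0.0179). Gpc6, a glypican released by astrocytes, differed by -0.13 ± 0.10, and Nptx2, a pentraxin that clusters AMPA receptors, by -0.08 ± 0.07. Both of the latter had overlapping genotypes.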

How the data were processed

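Striatal RNA of 3 mice per genotype was sequenced in paired reads by the authors, who trimmed with Trimmomatic 0.35, aligned with TopHat2 2.1.0 to GRCm38 and counted per gene with HTSeq. Strand setting and annotation release are not given in the sources used here. The deposited value is a signal, the reads of a gene in a library after division by its DESeq2 size factor. Per the labels, samples fall into TG and WT, and nothing pairs them. No library was left out.

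Division by the value of 1 read returned whole counts, within 0.01, for 100% of the values of each library. Totals were 36647626, 27858248 and 32342629 for TG mice 1 to 3 and 27689589, 33575536 and 32087895 for WT mice 1 to 3. Of the 46078 identifiers, 45229 matched GENCODE M21. limma 3.58.1 (R 4.3.3) with a mean-variance trend was fitted to log2(value + 1) where the mean reached 10, and P values were adjusted by Benjamini and Hochberg with a threshold of 0.05. Fold changes are on this scale, and the pseudocount understates those of low genes. edgeR 4.0.16, limma-voom and DESeq2 1.42.0 on the recovered counts were alternatives. Over all genes they called 1, 1 and 7 genes. The fit was tested on simulated data. Scaling by TMM or by totals, pseudocounts of 5 and 0.5, minimum means of 50 or none, marker sums as a covariate, the replicate number as a block and each library left out were tried as well. The covariate of spiny projection neuron markers and the length from protein-coding transcripts were added after seeing the data.

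Named genes were all members, Shank3, in each role the 3 partner genes of lowest P value and genes singled out in the text as chosen for their role or overlap. The members, partner genes and marker lists were chosen with earlier results of these data known. Marker sums not given in the report, each as the range in TG and then in WT mice, were 8731 to 9755 and 9369 to 10037 for striatal interneurons, 819.9 to 1259.6 and 872 to 971 for thalamic neurons, 26758 to 32565 and 27927 to 33510.3 for astrocytes, 4309 to 4790.5 and 4631 to 4792 for oligodendrocyte precursors, and 4385 to 4618 and 4095 to 4956 for endothelial cells. No marker gene was called.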

Additional observations from a re-analysis of the deposited data

How the results depend on the processing

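No member and no partner gene was called by any of the 19 alternatives, and Shank3 was called by all of them. Of the 190 recomputed fold changes of the members, 187 kept their sign, and the smallest adjusted P value was 0.620 (Cnih3 without TG mouse 2). The 3 exceptions were Cacng2 without TG mouse 2 (0.0080) and Cacng3 without TG mouse 3 (0.00088) and without WT mouse 1 (0.0049), all close to 0, and over the mice left out Cacng2 ran from -0.0545 to 0.0080 and Cacng3 from -0.0518 to 0.0049. With a mouse left out, the log2 fold change ran from 0.0597 to 0.270 for Cnih3 and from 0.0667 to 0.131 for Gria2. For Cnih2 it ran from -0.131 to -0.0102.

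With the replicate number as a replicate block, the count of members called was 0, as without it. The labels do not say that equal numbers share a litter or day, and the deviations of same-numbered mice correlated at 0.05, 0.02 and 0.09, so the numbers were not taken to pair the mice.

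Levels per length depend on the length, as the report gives for Gria2 and Gria3. With the longest transcript the levels were 82.6 for Gria1, 76.7 for Gria2, 53.4 for Gria3, 18.7 for Gria4 and 28.5 for Cacng8 RPKM. The share of Gria1 in its family, with all annotated exons 44.1% in TG and 44.4% in WT mice, was 35.7% over all mice with the longest transcript. With 3 mice per genotype, an exact permutation test cannot give a P value below 0.1, and the spread between the libraries of the mice, not read depth, limits these comparisons.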
